A study of Rattus norvegicus with 9 samples.

Results

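The genes described here are the cytosolic ribosomal protein genes, which encode the proteins of the ribosome in the cytoplasm. They were chosen by name: protein-coding rat genes with a RefSeq symbol of the form Rpl or Rps followed by a number and an optional a or x, together with Rplp0, Rplp1, Rplp2 and Rpsa. The rule found 77 genes among 36856 in the deposited tables, 46 of the large subunit and 31 of the small subunit, with 187 transcripts in all. RNA was sequenced from H9c2(2-1) cells, a line of wild-type myoblasts from embryonic rat heart that is used as a model of heart muscle. The 9 libraries fall into 3 groups of 3. ESW cells received energized structured water and CW cells a control water. Treatment lasted 72 h, each water was diluted to 0.01, and medium with fresh water was given every 24 h. Control cells stayed untreated in their usual growth medium. Their time in culture and their medium changes were not found in the labels. All groups are the same line, so that differences between donors or animals were not sampled.

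A ribosome joins a large and a small subunit, each built in the nucleolus from ribosomal RNA and many proteins that are needed in nearly equal amounts. The mRNAs of these proteins are short, stable and among the most abundant of a growing cell, and they share a transcription start in a run of pyrimidines, the terminal oligopyrimidine or TOP motif. Through this motif the kinase mTORC1 and the RNA-binding protein LARP1 adjust the translation and stability of the whole family together. Heart muscle cells raise ribosome production when they grow in size, which is why the family is followed in models of the heart.

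The following windows surround the annotated start of some of the members named below. Each holds the 30 bases before and the 20 bases after the annotated transcription start, from RefSeq on the assembly GRCr8, written 5' to 3' on the strand of the gene, and the capitals mark the longest run of C and T. The first 8 belong to members that were lower in ESW than in Control, and the last pair, Rps2 and Rpl7a, to members with the smallest differences.
Rpl9, chr14:43247560-43247609, plus strand: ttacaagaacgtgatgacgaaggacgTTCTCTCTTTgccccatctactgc
Rpl36, chr9:1533750-1533799, plus strand: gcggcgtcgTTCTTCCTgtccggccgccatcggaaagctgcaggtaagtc
Rpl12, chr3:36661910-36661959, plus strand: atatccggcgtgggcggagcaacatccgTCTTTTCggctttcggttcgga
Rpl24, chr11:58128386-58128435, minus strand: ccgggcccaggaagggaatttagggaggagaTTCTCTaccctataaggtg
Rps27a, chr14:107488866-107488915, minus strand: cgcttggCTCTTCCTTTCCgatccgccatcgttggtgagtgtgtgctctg
Rps18, chr20:4933715-4933764, plus strand: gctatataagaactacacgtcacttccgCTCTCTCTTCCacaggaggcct
Rps27, chr2:177964587-177964636, minus strand: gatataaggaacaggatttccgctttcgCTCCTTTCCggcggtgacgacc
Rps6, chr5:106420521-106420570, minus strand: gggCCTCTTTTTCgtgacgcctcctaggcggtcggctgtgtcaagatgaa
Rps2, chr10:14251818-14251867, plus strand: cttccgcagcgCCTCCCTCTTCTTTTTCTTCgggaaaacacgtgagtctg
Rpl7a, chr3:30637106-30637155, plus strand: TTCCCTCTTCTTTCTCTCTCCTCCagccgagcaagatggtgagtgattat

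The longest run was 10 bases in Rpl9 and Rps6, 11 in Rps18, 12 in Rps27a, 9 in Rps27, 20 in Rps2 and 24 in Rpl7a. Of the 2 annotated starts of Rps27a, the window with the longest run is shown. These are single members, and called and uncalled members are compared further on. Rpl36 held 8, Rpl12 7 and Rpl24 6. Rpl36a, a called member whose window is not shown, held 6, beginning at base 15 of the transcript. The run covered the annotated start in Rpl9, Rpl12, Rps18, Rps27 and Rps2, ended before it in Rpl36, Rps27a, Rps6 and Rpl7a, and began just after it in Rpl24. Promoter sequences were found for 62 of the 77 members. A run of at least 8 bases of C or T in this window occurred in 48 of them, 77.4%, and in 5951 of 27457 genes with such a sequence, 21.7%. The median longest run was 10 bases in the members and 5 in all genes. The members are known for this feature, and the windows set it beside the values that follow.

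The libraries held 26748673 to 48574618 estimated reads, and 13913 to 15002 genes had at least 10. After the expression filter 14706 genes were tested, and all 77 members were among them. On the first principal component of log2 CPM, with 24.1% of the variance, the ESW libraries ran from -28.7 to -8.79 and included the score of Control replicate 1, -10.9, whereas Control replicates 2 and 3 lay at 7.08 and 12.3 and the CW libraries at 15.4 to 16.5. Markers matched the label of the line in part. Of 13 myoblast and muscle genes, 7 were over 1 CPM (Vim, Des, Myog, Myod1, Acta2, Tnnt2 and Gata4). The other 6 were under 1 CPM in every library. They were the myoblast genes Myf5, Myf6 and Pax7, and Myh6, Nkx2-5 and Nppa of differentiated heart muscle.

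The members were among the more abundant mRNAs of these cells. Over the 9 libraries the median of their mean TPM, a level scaled for transcript length and library total, was 1701, and 64 of 77 were over 1000 TPM. In the large subunit the highest was Rpl41, which encodes a very short basic peptide, at 6953 ± 802 TPM in ESW, 8077 ± 636 in CW and 7942 ± 721 in Control (SD, n = 3 each). Rplp1, an acidic protein of the stalk that recruits translation factors, followed with a mean of 4672 TPM and Rpl13a with 3421 TPM. In the small subunit Rps2, which lines the entry of the mRNA channel, averaged 4701 TPM, Rps29 3716 TPM and Rps26, which touches mRNA upstream of the start codon, 3202 TPM.

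The lowest levels belonged to a few genes that stood well below the rest. Rps14 had 2.37 TPM, Rps20 25.3 TPM, Rpl30 44.2 TPM, Rpl22 131 TPM and Rpl37 226 TPM as means over the 9 libraries. The third lowest of the small subunit was Rps27a, at 1041 TPM. For Rps14, Rps20, Rpl30 and Rpl37 most reads lay on annotated copies of the gene, which are described further on. Rpl22, which many cell types can lose because its paralog Rpl22l1 can take its place, has a long transcript of 1897 bases. In all, 67 members had a mean transcript length under 1000 bases.

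As a family the members took a smaller share of the reads in ESW. Their reads made up 3.20%, 3.01% and 2.93% of the ESW libraries, 3.25%, 3.43% and 3.47% of the CW libraries and 3.22%, 3.46% and 3.49% of the Control libraries. Every ESW library lay below every CW and Control library, but ESW replicate 1 and Control replicate 1 differed by little. The mean share in ESW was 89.9% of that in Control and 90.2% of that in CW, and the CW share was 99.7% of the Control share. On the TPM scale the groups overlapped, at 13.1% to 14.0% in ESW, 13.9% to 14.8% in CW and 13.7% to 14.7% in Control. Relative to each gene's mean over the 9 libraries, the median deviation of the members on the log2 scale was -0.0045, -0.092 and -0.13 in ESW, -0.022, 0.021 and 0.075 in CW and -0.014, 0.057 and 0.085 in Control. Replicate 1 of each group lay close to 0, and the groups were apart mainly in replicates 2 and 3. In bulk RNA these shares are relative: fewer cells with a given level and less RNA of these genes per cell cannot be told apart.

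Both subunits followed this pattern. Genes of the large subunit held 1.79% ± 0.0878 of the reads in ESW, 1.98% ± 0.0615 in CW and 1.98% ± 0.0838 in Control (SD, n = 3 each). ESW replicate 1, at 1.890%, lay just above Control replicate 1, at 1.886%. Genes of the small subunit held 1.26% ± 0.0498 in ESW, 1.40% ± 0.0551 in CW and 1.41% ± 0.0621 in Control, and here no ESW library reached a CW or Control library. The ratio of large to small subunit reads was 1.42 to 1.44 in ESW, 1.40 to 1.42 in CW and 1.40 to 1.41 in Control. On the TPM scale that ratio overlapped, at 1.233 to 1.254 in ESW, 1.232 to 1.242 in CW and 1.229 to 1.245 in Control.

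**Figure D1:**
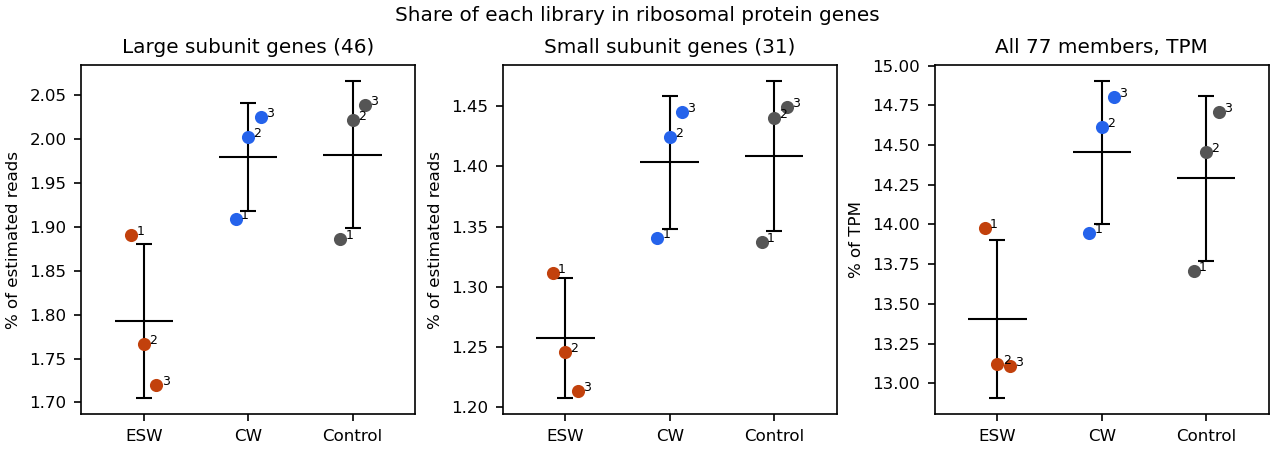
Share of each library in ribosomal protein genes, in percent of estimated reads for the large and the small subunit and in percent of TPM for all 77. Points are libraries numbered by replicate, and bars show the mean and SD (n = 3). For the small subunit the 3 ESW points lie below all others; replicate 1 is the ESW library nearest to the other groups and the lowest library of CW and of Control.

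The first comparison set treated cells against untreated cells. Of the 77 members, 25 were lower in ESW and 0 higher at an adjusted p under 0.05 (edgeR's quasi-likelihood test, Benjamini-Hochberg over all genes tested), and 52 were not called. Among all genes tested 3.28% were called lower and 4.76% higher. The called members included 14 of 46 in the large subunit (30.4%) and 11 of 31 in the small subunit (35.5%). Their changes were small, at 0.147 to 0.411 on the log2 scale. Of all 77, 68 had a negative log2 fold change and 9 a positive one, with a median of -0.11 against -0.0097 for all genes tested, -0.10 in the large and -0.14 in the small subunit. Leaving out 1 library gave medians of -0.16, without ESW replicate 1, to -0.086, without ESW replicate 3.

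In 30 members (39.0%) every ESW library lay below every Control library, which held for 12.4% of all genes tested, and in 1, Rpl6, every ESW library lay above, which held for 13.3% of all genes. An unadjusted p under 0.05 was reached by 45 members and by 22.8% of all genes. Of the 25 called members the libraries were separate in 24, and overlapped in Rps23. The count of 25 fell to 10 without Control replicate 2, to 14 without Control replicate 3 and to 7 without ESW replicate 3. It was 10 when the mean effective length of a gene's transcripts entered the model, under which 1.24% of all genes were called lower. For the fits without a library, shares of all genes called are not given here. Whether replicates were grown as separate cultures is not in the labels, and the p-values reflect no more than the spread among them, which could be technical.

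Transcript length and fragment length were set beside this count, since most members are short. Of 928 other protein-coding genes with transcripts under 1000 bases, 80 (8.62%) were called lower and 20 (2.16%) higher in ESW than in Control, and their median log2 fold change was -0.066. The median difference between length and effective length over long transcripts, which follows the fragment length, was 245 to 255 bases in ESW, 248 to 260 in CW and 235 to 246 in Control. Median effective lengths of the members were 365 to 375 bases in ESW, 364 to 380 in CW and 370 to 388 in Control. With effective lengths in the model the median of the members was -0.095, and 10 were lower, among them Rpl9, Rpl23, Rpl34, Rpl36, Rps18, Rps23, Rps25, Rps27 and Rps27a. Among the members the log2 fold change showed little relation to transcript length (Spearman's rho 0.107 over 77 genes) or to TPM (0.038), given as a description across genes that share libraries.

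**Figure D2:**
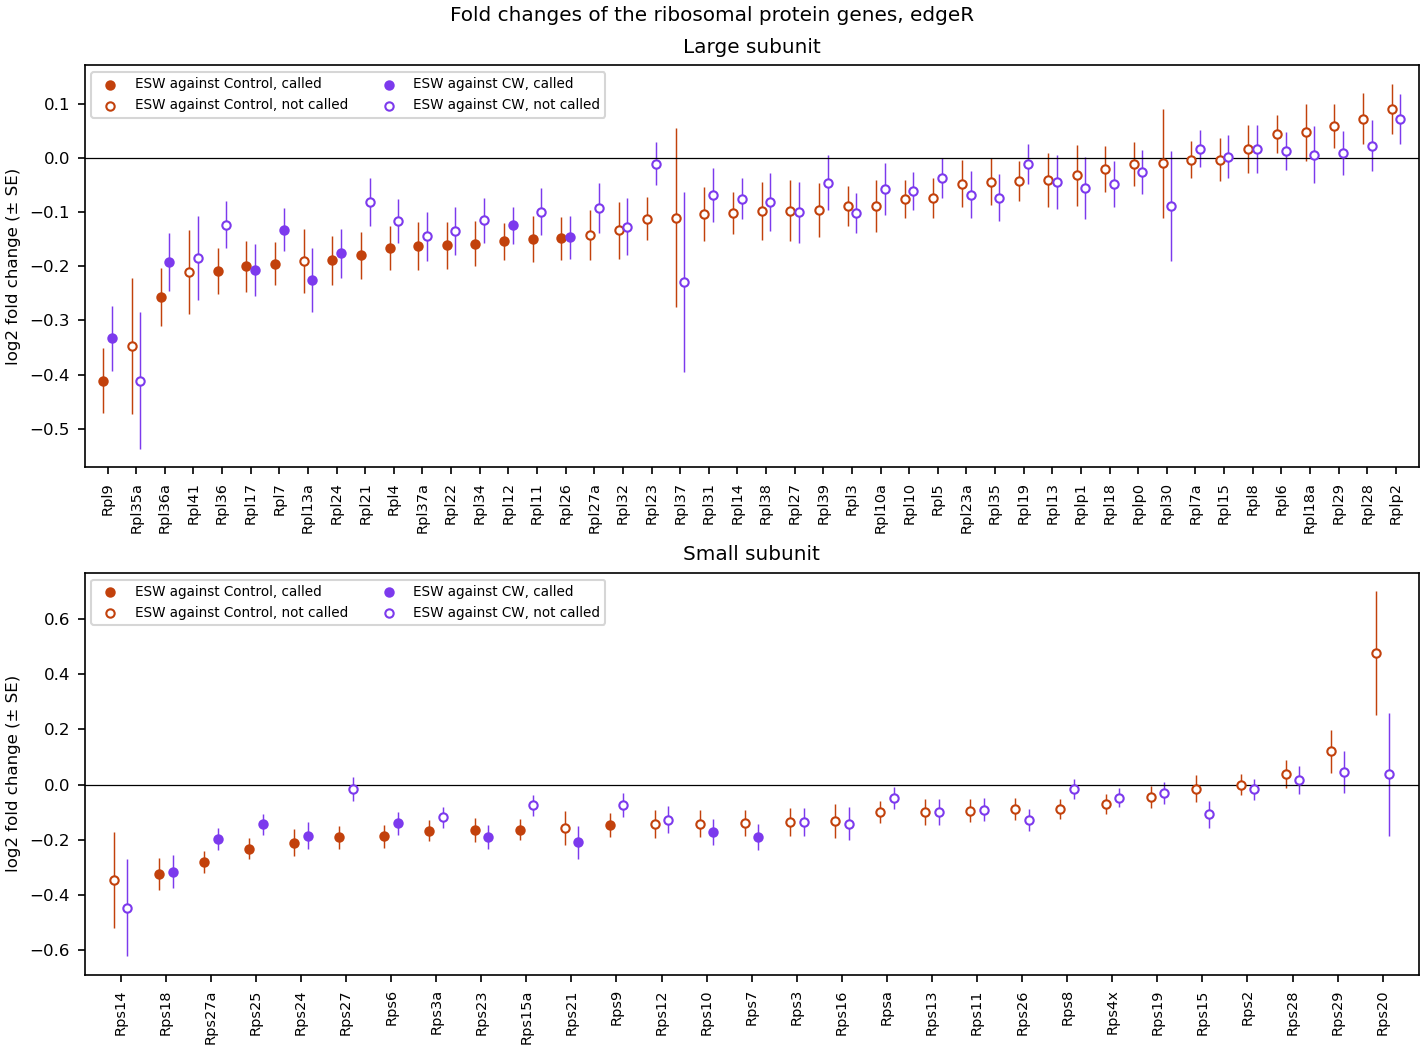
Log2 fold change (± SE) of the members described here, sorted by ESW against Control, for ESW against Control (orange) and ESW against CW (violet). Filled points are called at an adjusted p under 0.05. Most points lie below 0, all filled points do, and Rps20, with few reads, is the highest point.

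In the large subunit the member with the smallest p was Rpl9, which sits near the base of the stalk. It had 300.3, 331 and 301 CPM (reads relative to the scaled library total) in ESW, 359, 399 and 416 CPM in CW and 379, 406 and 455 CPM in Control. The 3 ESW libraries lay below the other 6. Rpl9 fell to 0.752 of its Control level, a log2 fold change of -0.41 (SE 0.060, edgeR adjusted p = 0.00051), and its call held under all 19 alternatives, with values of -0.47 to -0.31.

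Rpl7 had 455, 448 and 434 CPM in ESW, 466, 490.2 and 509 CPM in CW and 494, 512 and 524 CPM in Control. Its ESW libraries were again the lowest, and its log2 fold change against Control was -0.20 (SE 0.040, edgeR adjusted p = 0.0053). With effective lengths in the model it was -0.13 and not called (adjusted p = 0.152). Rpl36 had 114, 114 and 103 CPM in ESW, 119, 121 and 121 CPM in CW and 128, 125 and 129 CPM in Control, with CW between the others. Its change against Control was -0.21 (SE 0.042, edgeR adjusted p = 0.0053), and it too kept its call under all 19 alternatives.

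Rpl36a, a protein near the exit site of transfer RNA, had 158, 144 and 137 CPM in ESW, 162, 161 and 178 CPM in CW and 167, 170.0 and 187 CPM in Control. The ESW libraries lay below the other 6, and the log2 fold change against Control was -0.26 (SE 0.053, edgeR adjusted p = 0.0060). Rpl12, which with the stalk forms the landing site of translation factors, was lower by less but with little spread, at 611 ± 6.62 CPM in ESW, 666 ± 14.9 in CW and 679 ± 11.6 in Control (SD, n = 3 each). Its change against Control was -0.15 (edgeR adjusted p = 0.0093). Rpl24, which forms a bridge to the small subunit, had a mean of 348 ± 17.3 CPM in ESW, 393 ± 8.46 in CW and 397 ± 23.9 in Control, a change of -0.19 (edgeR adjusted p = 0.014). None of these 3 was called against Control with effective lengths in the model, where Rpl36a was at -0.19 (edgeR adjusted p = 0.145), Rpl12 at -0.092 (adjusted p = 0.208) and Rpl24 at -0.13 (adjusted p = 0.224).

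The other 8 called members of the large subunit were Rpl4, Rpl11, Rpl17, Rpl21, Rpl22, Rpl26, Rpl34 and Rpl37a. Rpl4 and Rpl17 line the tunnel through which the new protein leaves. Rpl17 had 360.3, 325 and 325 CPM in ESW, 368, 393 and 404 CPM in CW and 366, 392 and 402 CPM in Control, so that CW and Control covered nearly the same range. Its log2 fold change against Control was -0.20 and that of Rpl4 -0.17. The remaining 6 lay between -0.18 and -0.15. With effective lengths in the model Rpl34 was the 1 of these 8 still called, and Rpl26 was at -0.075 (edgeR adjusted p = 0.491).

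In the small subunit Rps27a was among the members with the smallest p. It is made as a fusion with ubiquitin and so supplies both a ribosomal protein and ubiquitin. It had 376, 396 and 358 CPM in ESW, 421, 429.9 and 445 CPM in CW and 446, 460.1 and 467 CPM in Control. The 3 groups did not overlap with each other, with ESW lowest and Control highest. The log2 fold change of Rps27a was -0.28 against Control (SE 0.040, edgeR adjusted p = 0.00046) and -0.20 against CW (adjusted p = 0.0069).

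Rps18, in the head of the small subunit, had 326, 311 and 278 CPM in ESW, 364, 388 and 386 CPM in CW and 349, 381 and 416 CPM in Control. CW and Control covered the same range here, and ESW lay below both. Its log2 fold change was -0.33 against Control (SE 0.058, edgeR adjusted p = 0.0022) and -0.32 against CW (adjusted p = 0.0035). Rps25, which some viral RNAs need to start translation in human and yeast cells, had 170.5, 166 and 166 CPM in ESW, 181, 182 and 193 CPM in CW and 200.2, 192 and 198 CPM in Control. Its change against Control was -0.23 (SE 0.038, edgeR adjusted p = 0.0012), and the ESW libraries lay below all others.

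Rps6, the member that S6 kinases phosphorylate downstream of mTORC1, had 452, 452 and 428 CPM in ESW, 466, 501 and 501 CPM in CW and 480.4, 518 and 519 CPM in Control. It was lower in ESW by 0.19 against Control on the log2 scale (edgeR adjusted p = 0.0091). Also called in the small subunit were Rps3a, Rps9, Rps15a, Rps23, Rps24 and Rps27. Rps24, mutated in some families with Diamond-Blackfan anaemia in humans, averaged 271 ± 20.6 CPM in ESW, 309 ± 14.5 in CW and 314 ± 7.76 in Control (SD, n = 3 each), at -0.21 against Control (edgeR adjusted p = 0.011). Rps23, a protein of the decoding centre, averaged 318 ± 16.1 CPM in ESW, 363 ± 9.72 in CW and 357 ± 18.2 in Control, at -0.17 against Control (edgeR adjusted p = 0.025). With effective lengths in the model Rps24 was at -0.11 (edgeR adjusted p = 0.418), Rps6 at -0.14 (adjusted p = 0.189), Rps3a at -0.097, Rps15a at -0.094 and Rps9 at -0.13, and none of these 5 was called against Control. Among the 25 called members, Rpl9, Rpl36, Rps18, Rps25 and Rps27a kept their calls under all 19 alternatives.

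**Figure D3:**
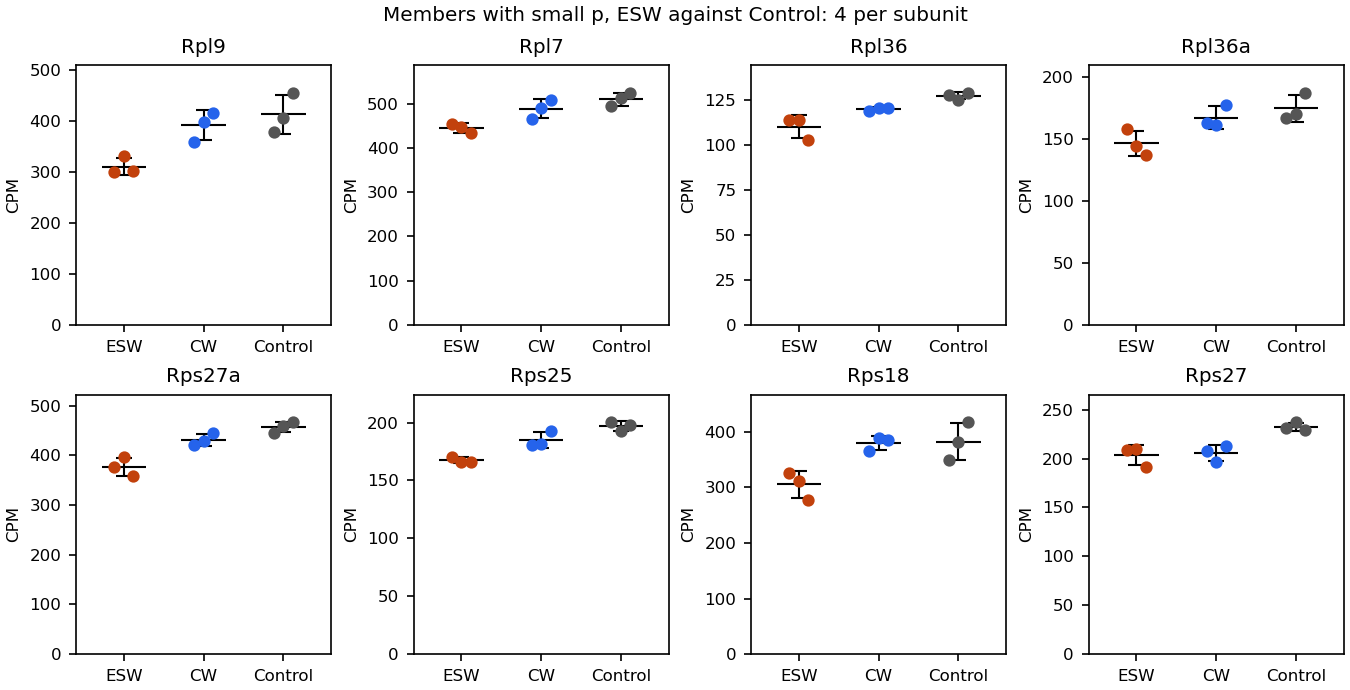
CPM of 4 members per subunit with small p for ESW against Control, in each library (points) with mean and SD (bars, n = 3). In all 8 panels the 3 ESW points lie below the 3 Control points; the CW points of Rpl36 and Rps27a lie between them, and those of Rps27 cover nearly the range of ESW.

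Many members differed by less than their error. Rps2 had 1850, 1875 and 1915 CPM in ESW, 1814, 1908 and 1985 CPM in CW and 1815, 1931 and 1898 CPM in Control, a log2 fold change of -0.0010 against Control (SE 0.038). In the large subunit Rpl15 was at -0.0026 (SE 0.040) and Rpl7a, with 606, 622 and 613 CPM in ESW against 607, 628 and 609 CPM in Control, at -0.0027 (SE 0.034). In each of these genes the ESW libraries overlapped with the Control libraries. Changes within 2 SE of 0 were not detectable with these libraries. Larger ones could also miss the threshold, such as that of Rpl13a, at -0.19 against Control (SE 0.059, edgeR adjusted p = 0.052).

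The stalk proteins Rplp0, Rplp1 and Rplp2, which are bound together on the large subunit, were not called. Rplp0 had 1603 ± 74.6 CPM in ESW, 1633 ± 53.5 in CW and 1616 ± 59.8 in Control (SD, n = 3 each), and Rplp1 had 659 ± 75.2 in ESW, 685 ± 28 in CW and 674 ± 17.0 in Control. Rplp2, at 272 ± 14.1 CPM in ESW, 259 ± 16 in CW and 255 ± 6.23 in Control, had a log2 fold change of 0.09 against Control (edgeR adjusted p = 0.248). Rpl41 was at -0.21 with a large spread (SE 0.077, adjusted p = 0.10), and Rps26 at -0.09 (adjusted p = 0.186). Rps29 had a value of 0.12 (SE 0.077, adjusted p = 0.375).

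**Figure D4:**
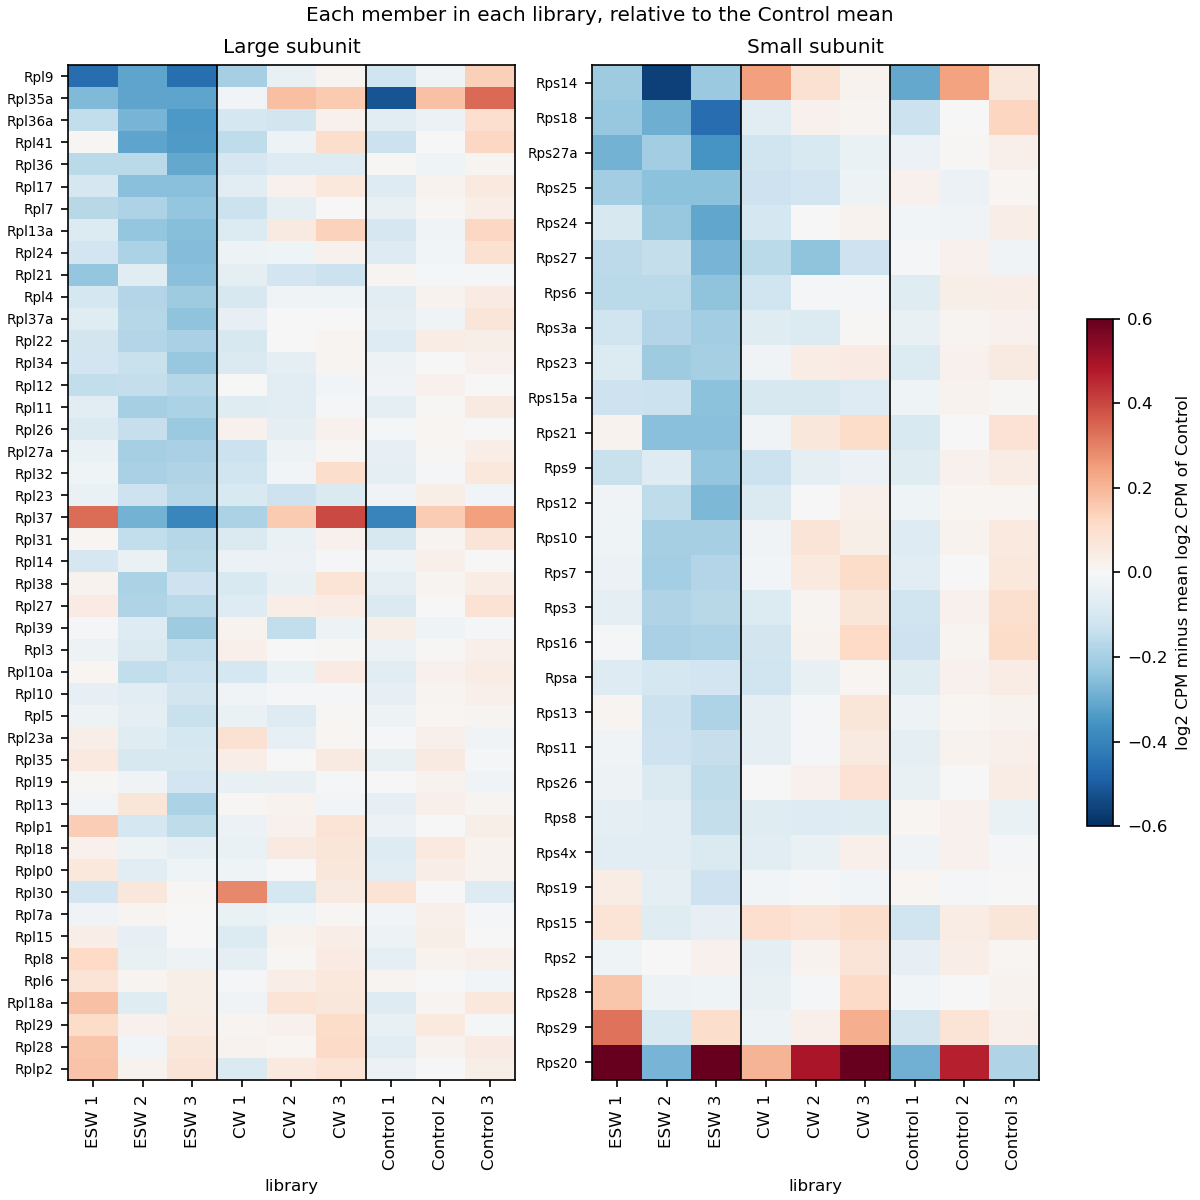
Log2 CPM of the members described here in each library, minus its mean over the Control libraries, sorted within each subunit by the change of ESW against Control. Blue is lower and red higher, and the colour scale ends at 0.6 in either direction. Most upper rows are blue in the 3 ESW columns, often most deeply in ESW replicates 2 and 3. Rpl9 and Rps27a are deeper in ESW replicate 1 than in replicate 2, and Rpl41 is not blue in ESW replicate 1. Rpl35a and Rpl37 are also blue in Control replicate 1.

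The second comparison, of both waters with each other, asked what differs beyond water as such. It shares the ESW libraries with the one against Control, so that the calls are not independent. Of the 77 members 18 were lower in ESW than in CW and 0 higher (edgeR), against 3.99% lower and 4.15% higher among all genes tested. They were 8 of 46 in the large subunit (17.4%) and 10 of 31 in the small subunit (32.3%), and the difference between subunits was not tested. The median of the 77 was -0.093 against -0.0018 for all genes, and it was -0.14 without ESW replicate 1 and -0.070 without CW replicate 3. In 29 members (37.7%) every ESW library lay below every CW library, which held for 13.4% of all genes. An unadjusted p under 0.05 was reached by 37 members and by 23.9% of all genes. Of the 928 other short genes 54 (5.82%) were called lower and 8 (0.862%) higher. With effective lengths in the model 13 members were lower, against 2.79% of all genes.

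Of the called members the largest falls were those of Rpl9, at -0.33 (SE 0.060, edgeR adjusted p = 0.0032), and Rps18, at -0.32. Both kept their calls against CW under all 19 alternatives. Rpl17 was lower than in CW by 0.21 (edgeR adjusted p = 0.012) and Rpl24 by 0.18 (adjusted p = 0.022). Rpl12, Rpl26, Rpl36a, Rpl7, Rps6, Rps24 and Rps25 were also called, at -0.19 to -0.12. With effective lengths in the model 8 of the 18 were not called, namely Rpl7, Rpl12, Rpl24, Rpl26, Rpl36a, Rps6, Rps10 and Rps24, and none of the 18 values moved by over 1.5 times. The count of 18 was 5 without CW replicate 2, 3 without CW replicate 3, 4 without ESW replicate 2 and 2 without ESW replicate 3, and 28 without a filter on low counts. No shares of all genes called are given beside these counts.

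A further 4 members were called against CW and missed the threshold against Control. Rpl13a, which human myeloid cells release from the ribosome after interferon treatment, had 745, 671 and 660.0 CPM in ESW, 743, 818 and 865 CPM in CW and 733, 776 and 858 CPM in Control. ESW replicate 1 overlapped with both groups, and the change was -0.23 against CW (edgeR adjusted p = 0.023) and -0.19 against Control (adjusted p = 0.052). Rps7, which is needed to assemble the small subunit, had 517, 459 and 469 CPM in ESW, 524, 553 and 572 CPM in CW and 506, 531 and 553 CPM in Control, at -0.19 (adjusted p = 0.018) and -0.14 (adjusted p = 0.076). Rps10 and Rps21 were at -0.17 and -0.21 against CW, and at -0.14 and -0.16 against Control. Rps23 was at -0.19 against CW (adjusted p = 0.013).

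The control water by itself was compared with untreated cells, and the members were close in these groups. By edgeR 0 of 77 were called, with 6 at an unadjusted p under 0.05 (9.87% of all genes reached it), and among all genes 0.15% were called lower and 0.0272% higher. Limma-voom also called 0. The median of the members was -0.010 against -0.0004 for all genes, and 71 of 77 lay within 0.1 of 0 on the log2 scale. In 7 members every CW library lay below every Control library and in 1, Rps15, above. Of all genes tested 7.56% lay below and 7.13% above in this way.

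Rps27 was the member nearest to a call. It had 208, 210.2 and 192 CPM in ESW, 208, 196 and 213 CPM in CW and 232, 237 and 229 CPM in Control. ESW and CW covered the same range, and both lay below every Control library. The log2 fold change against Control was -0.19 in ESW (SE 0.042, edgeR adjusted p = 0.0090) and -0.18 in CW (SE 0.043, adjusted p = 0.121), and ESW differed from CW by -0.016 (adjusted p = 0.865). With DESeq2 the CW value was -0.17 and was called (adjusted p = 0.0162), and it was also called by edgeR without a filter on low counts (adjusted p = 0.0038).

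A single test over the 3 groups called 26 members, 14 of the large and 12 of the small subunit, against 9.58% of all genes tested. The count was 8 with effective lengths in the model, 16 without CW replicate 3, 14 without Control replicate 2, 12 without ESW replicate 2 and 6 without ESW replicate 3. Shares of all genes under these settings are not given here.

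Ribosomal protein genes have left many processed copies in mammalian genomes, and Salmon divides reads that fit several copies by estimate. The deposited tables held 237 annotated copies of 65 members, recognised by symbol. For 60 of the 77 members, Rpl9 and Rps18 among them, under 1% of the joint reads lay on copies. In 4 members copies held most reads: 99.2% for Rps14, 98.5% for Rps20, 96.3% for Rpl30 and 87.8% for Rpl37. The main holders were Rps14-ps7, Rps20-ps11, Rpl30l2 and Rpl37l1, named after their values were seen. In another 6 members copies held 10% to 50%, namely Rpl36, Rpl36a, Rplp2, Rps24, Rpl15 and Rpl35a. For Rpl36a 99.8% of these reads lay on Rpl36al1, a protein-coding gene that may be a paralog rather than a copy, so that the summed Rpl36a value may join 2 different genes.

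Rps14 is a protein of the small subunit platform whose loss underlies the anaemia of the deletion 5q syndrome in humans. By itself it had 90, 84 and 88 reads in the ESW libraries, 94, 121 and 105 in CW and 93, 128 and 151 in Control, a log2 fold change of -0.35 against Control with an SE of 0.17 (edgeR adjusted p = 0.241). Rps14-ps7, annotated as a transcribed pseudogene, had 306, 296 and 276 CPM in ESW, 336, 401 and 417 CPM in CW and 349, 374 and 473 CPM in Control, with the ESW libraries lowest. Summed with its copies, Rps14 was at -0.45 against Control (SE 0.084, edgeR adjusted p = 0.0029) and -0.40 against CW (adjusted p = 0.0074), among the larger falls of the family. The summed values were not fitted with effective lengths in the model. With them Rps14-ps7 by itself was at -0.35 against Control and not called (edgeR adjusted p = 0.0677). Against CW it was at -0.36 (adjusted p = 0.0468).

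For Rps20, which human cells mark with ubiquitin when ribosomes collide, the sign depended on the summing. The gene alone had 8.58, 3.77 and 7.31 CPM in ESW, 5.26, 6.42 and 7.22 CPM in CW and 3.75, 6.32 and 4.04 CPM in Control, at 0.48 against Control (SE 0.23, edgeR adjusted p = 0.211). It was called higher when no filter was used (adjusted p = 0.0036) and without ESW replicate 2. With its copies it had 402, 331 and 335 CPM in ESW, 368, 383 and 398 CPM in CW and 362, 399 and 409 CPM in Control, at -0.13 (adjusted p = 0.188). Rpl30 and Rpl37 with their copies were at -0.042 and -0.12 against Control and were not called.

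Rpl35a, singled out after its values were seen, had a large but uncertain difference alone. It had 137, 132 and 132 CPM in ESW, 163, 187 and 184 CPM in CW and 115, 186 and 209 CPM in Control, and Control replicate 1 was the lowest library of all. Its log2 fold change against Control was -0.35 (SE 0.13, edgeR adjusted p = 0.095). The copy Rpl35al1 had 55.8 CPM in Control replicate 1 and 7.38 to 16.6 CPM in the other 8 libraries. Summed with its copies, Rpl35a had 156, 144 and 148 CPM in ESW, 178, 200.1 and 203 CPM in CW and 173, 199.9 and 221 CPM in Control, and ESW no longer overlapped with Control. The summed values gave -0.41 against Control (SE 0.066, edgeR adjusted p = 0.0010) and -0.38 against CW (adjusted p = 0.0026).

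With copies added to their members throughout, 28 members were lower in ESW than in Control and 20 lower than in CW. The shares of all genes called under this setting are not given here. Rpl36, with 43.9% of joint reads on copies, was then at -0.16 against Control (edgeR adjusted p = 0.016), Rpl36a at -0.19 (adjusted p = 0.019) and Rps24 at -0.22 (adjusted p = 0.0046). Rplp2 was at 0.045 and Rpl15 at 0.020, neither called.

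**Figure D5:**
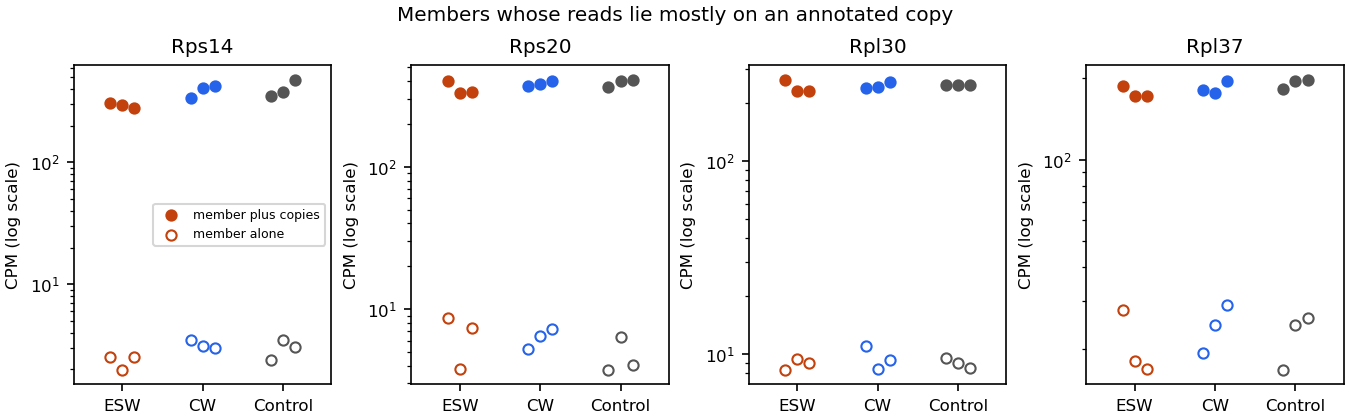
CPM on a log scale for the 4 members whose reads lie mostly on annotated copies, in each library, for the member alone (open points) and with its copies (filled points). The filled points lie far above the open ones, and in Rps14 the filled ESW points lie below all CW and Control points.

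Most members were carried by a single main transcript. Of the 77, 29 had 1 transcript and 48 at least 2, up to 15, and in 6 a second transcript held at least 20% of the gene's reads. In Rps24 the 669-base transcript held 21.9%, 22.8% and 20.6% of the reads in ESW, 24.5%, 22.2% and 22.1% in CW and 25.1%, 24.5% and 22.9% in Control. The ESW shares were below the Control shares by a narrow margin and overlapped with CW. In Rpl27a the 532-base transcript held 28.7%, 32.7% and 30.7% in ESW, 32.3%, 28.4% and 32.5% in CW and 35.6%, 33.2% and 33.2% in Control. Here the ESW and the CW shares both lay below every Control share and overlapped with each other. No test of these shares was made.

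The other 4 genes with a second transcript were Rpl5, Rpl11, Rpl31 and Rpl34. In Rpl34 the 652-base transcript held 22.0% ± 0.997 in ESW, 22.8% ± 1.58 in CW and 20.8% ± 0.277 in Control (SD, n = 3 each), so that here ESW lay above Control. The shares of the second transcript in Rpl5, Rpl11 and Rpl31 overlapped between all groups. That of Rpl11 spread widely, at 18.0% to 34.5% in ESW, 29.6% to 42.3% in CW and 27.3% to 33.7% in Control.

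Fau encodes a small subunit protein fused to a ubiquitin-like protein and does not carry an Rpl or Rps symbol. It had 343 ± 14.0 CPM in ESW, 356 ± 21.0 in CW and 354 ± 15.6 in Control (SD, n = 3 each). Fau was not called in any contrast by edgeR, with a log2 fold change of -0.044 against Control.

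Genes outside the family were grouped in lists of paralogs, other translation genes, assembly factors, regulators and stress genes. Of the 175 tested genes of these lists, 11 (6.29%) were lower and 7 (4.0%) higher in ESW than in Control, against 3.28% and 4.76% of all genes tested. Against CW 7 (4.0%) were lower and 6 (3.43%) higher, against 3.99% and 4.15% of all genes.

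Of 14 listed paralogs 7 had an entry and 5 were expressed enough to be tested. Of these 5, 4 were lower in ESW than in Control and 0 higher. Rpl22l1, which can replace Rpl22, had 39.9, 47.5 and 41.6 CPM in ESW, 48.2, 55.1 and 59.0 CPM in CW and 51.6, 56.5 and 63.2 CPM in Control. Every ESW library lay below the others, and the log2 fold change was -0.41 against Control (SE 0.077, edgeR adjusted p = 0.0033) and -0.33 against CW (adjusted p = 0.014). Rps27l, a paralog of Rps27, was at -0.19 against Control (adjusted p = 0.014), with 61.4, 63.4 and 57.9 CPM in ESW, 67.3, 64.9 and 66.4 CPM in CW and 70.4, 67.8 and 69.7 CPM in Control.

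Rpl7l1 was at -0.14 and Rps23l1, with 2.81 to 6.15 CPM in ESW and 6.53 to 7.65 CPM in Control, at -0.69. By its symbol Rps23l1 was also counted above as a copy of Rps23. Against CW, Rpl22l1 was the 1 paralog called. Rpl3l, a muscle form of Rpl3, lay under 0.1 CPM in every library. Rpl36al1 had 101, 88.3 and 84.1 CPM in ESW, 96.5, 96.9 and 97.1 CPM in CW and 94.9, 98.8 and 97.2 CPM in Control (-0.089, edgeR adjusted p = 0.329).

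Of 16 other translation genes known for a TOP start, 3 were lower in ESW than in Control, 1 higher and 12 not called. Their median was -0.046, with -0.0097 for all genes tested. With effective lengths in the model it was -0.010, with -0.0080 for all genes. Relative to CW it was -0.010, with -0.0018 for all genes. The 3 lower than in Control were Eif3e, a subunit of an initiation factor, at -0.15, Hnrnpa1 at -0.14 and Eef1b2, which reloads the elongation factor EEF1A, at -0.14. Eef2, which moves the ribosome along the mRNA, was higher, with 2906, 2965 and 3020 CPM in ESW, 2760.0, 2713 and 2710 CPM in CW and 2805, 2712 and 2682 CPM in Control (0.12, edgeR adjusted p = 0.036). Eif3e and Eef1b2 were also lower and Eef2 higher than in CW. In the fixed panel Eef1a1 was at -0.031, Rack1, a scaffold on the small subunit, at 0.024 and Tpt1 at -0.10 against Control, none of them called.

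Genes that assemble ribosomes were mostly not called. Among 33 assembly factors of the large subunit Gnl3, a nucleolar GTPase, was the 1 called, with 48.7, 50 and 46.8 CPM in ESW, 57.2, 54.8 and 59.6 CPM in CW and 54.9, 58.6 and 57.2 CPM in Control (-0.23, edgeR adjusted p = 0.0059). Among 38 of the small subunit 0 were called against Control by edgeR, where 7 had an unadjusted p under 0.05, 0 by limma-voom and 1 by DESeq2. Against CW 1 was called by edgeR, Rrp12, which was higher by 0.22. Of 18 proteins of small nucleolar particles 1 was lower than in Control, Nhp2 at -0.22, and Npm1, an abundant nucleolar chaperone, was at -0.076 and not called. The medians of these 3 lists against Control were -0.042, -0.063 and -0.063, with -0.0097 for all genes. With effective lengths in the model they were -0.0052, -0.041 and -0.020, with -0.0080 for all genes. Relative to CW they were -0.0010, -0.018 and 0.014, with -0.0018 for all genes.

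RNA polymerase I makes the ribosomal RNA. Of 15 tested genes of this polymerase and its factors 1 was lower in ESW than in Control, Taf1d, a subunit of its promoter factor, at -0.44. It had 18.7, 18.5 and 16.7 CPM in ESW, 22.9, 27.4 and 26.6 CPM in CW and 21.7, 25.3 and 26.0 CPM in Control. Against CW Taf1d was at -0.52 (edgeR adjusted p = 0.0012) and Taf1c at -0.37 (adjusted p = 0.013), and the median of the list was -0.089 against Control and -0.083 against CW. Among 12 chaperones and importers of ribosomal proteins the importin Ipo4 was the 1 called, higher than in Control by 0.15.

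Of 17 regulators of ribosomal protein synthesis around mTORC1, LARP1 and MYC 1 was called against Control and 2 against CW. Tsc2, which holds mTORC1 back, had 53.9 ± 2.09 CPM in ESW, 51.4 ± 2.96 in CW and 46.1 ± 0.879 in Control (SD, n = 3 each), at 0.22 against Control (edgeR adjusted p = 0.0093). Eif4ebp2, a repressor of cap-dependent translation, and Akt1, a kinase upstream of mTORC1, were higher than in CW by 0.15 and 0.12. Myc, which drives ribosomal genes, was at 0.091 and Larp1 at 0.056 against Control, and neither was called. Among 11 genes of ribosome rescue Gcn1, which senses collided ribosomes, was the 1 called, higher than in Control by 0.17.

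Free Rpl5 and Rpl11, bound to 5S ribosomal RNA, inhibit the ubiquitin ligase MDM2 when assembly fails. Rpl5 had 562, 551 and 524 CPM in ESW, 559, 544 and 577 CPM in CW and 563, 579 and 582 CPM in Control. ESW and Control did not overlap by a small margin, but the gene was not called at -0.074 (edgeR adjusted p = 0.248). Rpl11 had 255, 232 and 233 CPM in ESW, 252, 253 and 265 CPM in CW and 255, 267 and 276 CPM in Control, and was lower than in Control by 0.15 (edgeR adjusted p = 0.038). The pair was picked for this role after its values were seen.

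Of 9 tested genes of the stress response around MDM2, 5 were not called against Control and 6 were not called against CW. Cdkn1a, a cell cycle inhibitor, had 159, 164 and 164 CPM in ESW, 143, 133 and 132 CPM in CW and 137, 138 and 121 CPM in Control. No ESW library overlapped with another group, and the log2 fold change was 0.30 against Control (SE 0.048, edgeR adjusted p = 0.00086) and 0.26 against CW (adjusted p = 0.0035). Phlda3, an inhibitor of AKT signalling, was higher by 0.17 against Control. Mdm4, a partner of MDM2, was lower by 0.21 against Control and by 0.34 against CW. Of the 18 genes of these lists called between ESW and Control, 5 were also called with effective lengths in the model, namely Rpl22l1, Rps27l, Eif3e, Tsc2 and Cdkn1a. Between CW and Control 0 of the 175 tested genes of these lists were called by edgeR, by DESeq2 or by limma-voom, and 11 had an unadjusted p under 0.05 with edgeR.

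Markers of other cell types were low. Of 5 endothelial markers 4 were under 1 CPM in every library, and so were all 5 blood cell markers and 4 of 5 epithelial markers. The summed CPM of the endothelial list was 0.872 to 1.94 in ESW, 1.41 to 1.97 in CW and 1.46 to 2.01 in Control, and that of the blood cell list was under 1 in every library. For the epithelial list, nearly all of it Krt8, the sums were 53.3 to 56.6 in ESW, 60.6 to 64.6 in CW and 49.3 to 58.4 in Control. The muscle list summed to 11890 to 12100 CPM in ESW, 10330 to 11000 in CW and 10710 to 10780 in Control, most of it Acta2 and Vim, which were higher in ESW than in Control by 0.17 and 0.11. The part of that shift in the lower share of ribosomal protein reads was not tested.

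Start sequences were compared between members that fell and the others. A run of at least 8 C or T bases near the start was found in 16 of 22 members called lower against Control (72.7%) and in 32 of 40 not called (80.0%), counting those with a promoter sequence. The core of ETS factor sites, CCGGAAG on either strand within the 300-base promoter, was found in 20 of 62 members (32.3%) and in 9.63% of all genes, with 5 of 22 among the called (22.7%) and 15 of 40 among the others (37.5%). The YY1 core AAGATGGC occurred in 8.06% of the members and 3.62% of all genes, and TATAAA in 9.68% and 15.3%. These are counts of letters in one annotated window, given as a description with no test.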

How the data were processed

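Per the labels' protocols, total RNA of 9 samples (RNeasy Plus Mini kit) was read on a NovaSeq X Plus. Salmon 1.10.3 and DESeq2, without a version, are named in the submitters' processing notes. The deposited tables give, per the file headers, for each of 114122 RefSeq transcripts an estimated count of reads, a TPM value (abundance the authors' Salmon run scaled for transcript length and library total) and the length and effective length in bases. The estimated counts are fractional as deposited, because Salmon divides reads that fit several transcripts. Neither the genome build nor the use of strand was given in the sources used here, and antisense or overlapping genes could share reads.

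All 114122 transcripts were matched by accession to a RefSeq gene table of GRCr8, used for symbols only, and counts and TPM were summed per gene and the counts rounded to whole numbers. The test was edgeR 4.0.16's quasi-likelihood test in R 4.3.3 with TMM scaling and filterByExpr, in 1 model over 9 libraries with 6 residual degrees of freedom and a common biological coefficient of variation of 4.84%, adjusted by Benjamini-Hochberg over 14706 genes and called below 0.05. CPM are TMM-scaled. Totals of 26748673 to 48574618 reads make counting error small beside the spread between libraries for most members. The test was also run on counts simulated from the levels and spread of these same libraries, and the outcome is not given here. Alternatives were DESeq2 1.42.0, limma-voom of limma 3.58.1, other scalings and filters, average transcript length offsets, copies summed with members, a replicate block, only the 2 groups compared and leaving out each library.

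Named were, per contrast and subunit, up to 6 called members with the smallest p, the 3 highest and 3 lowest by TPM, the 2 with the smallest change against Control, up to 3 called genes per other list, and a fixed panel of 16 genes, of which Rpl39l and Rpl36al had no entry. The members and lists were chosen with earlier results of these data known. Over all genes tested, same-numbered libraries of different groups showed little joint deviation from their group means (correlations of -0.12 to 0.040). These values cannot show whether samples were handled in pairs. The median deviation of the members rose with the replicate number in CW and in Control and fell in ESW. A model with a replicate block is among the alternatives. It gives each replicate number the same shift in every group, so it cannot follow trends of opposite sign. Figures were drawn with matplotlib 3.10.9. A few members and listed genes that these rules name are not reported here, although counts and medians over all members or lists include them.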

Additional observations from a re-analysis of the deposited data

How the results depend on the processing

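Counts and medians of the members moved with single libraries. Shares of all genes called are not given beside the counts below, so that their moves cannot be set against those of all genes. Leaving out 1 library gave a median of -0.16 to -0.086 in ESW against Control, -0.14 to -0.070 against CW and -0.033 to 0.011 in CW against Control, where the sign changed. Of members lower in ESW than in Control, leaving out 1 library gave 7 to 35, and lower than in CW 2 to 25; called over the 3 groups were 6 to 32. With average transcript length offsets 10 were lower than in Control (9 of the 25) and 8 were called over the 3 groups. Without a filter on low counts 28 were lower than in CW, 1 was higher than in Control (Rps20), and 1 was lower and 1 higher in CW than in Control (Rps27 and Rps20). Rps20 was also the 1 called higher without ESW replicate 2, so that leaving out 1 library gave 0 to 1 higher. DESeq2 called 1 lower in CW than in Control (Rps27). The replicate block gave 22 lower than in Control, 14 lower than in CW and 0 between CW and Control, and 19 over the 3 groups. For these results no other alternative moved a count by over 1.5 times. Across the 19 alternatives 6 of the 25 and 2 of the 18 kept their calls in all, and 0 called members changed sign. Of 78 single-gene calls, 41 were lost with offsets, 57 without ESW replicate 3 and 16 with the replicate block. With 3 libraries a group and a biological variation of 4.84%, the smallest called change against Control was 0.147 on the log2 scale.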
